A study of Homo sapiens with 35 samples.

Results

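Lamina contacts of human chromosome 3 from its short-arm end up to position 162000000 were examined in single cells. The members were the 100-kb bins of chromosome 3 that end at or before that position and hold a value in every cell. There were 1592 of them among 26584 such bins in the whole table. Of these, 686 lay on the long arm, starting above 92000000, and 906 on the short arm, ending at or before 90600000. The limit at 162000000 leaves out the distal long arm of the same chromosome, with 359 bins. The rule goes by position, and its limit was set with earlier results of these data known.

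All cells came from KBM7 clone 5-5, given in the labels as 2N. KBM7 is a line grown from human leukaemia cells. They carried the bacterial Dam methylase fused to LaminB1 and were treated with 0.5 nM Shield1 for 15 h before sorting, and every group of bins below comes from these same cells. Per the labels' protocols, each well received 1 cell, out of the 2% smallest that were positive for both Fucci cell-cycle markers. The table used here held 32 cells of this 1 group, no cells with unfused Dam and no untreated cells. The line is 1 clone, so differences between clones were not measured. Chromosome copies were not separated, and a contact can come from either copy at any time within the 15 h.

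The nuclear lamina is a meshwork of lamin filaments that lines the inner face of the nuclear envelope. Large domains of the genome lie against it, and most of them are poor in genes, weakly transcribed and late in replication. Lamin B1 is one of the filament proteins, and Dam fused to it leaves methyl groups on adenines of nearby GATC sites, which DpnI then cuts. In background knowledge, the short arm of chromosome 3 holds gene-dense stretches, with tumour suppressor genes such as VHL and BAP1, as well as gene-poor stretches with very long neuronal genes such as CNTN4 and ROBO1. CNTN4 encodes a contactin, an adhesion protein of axons, and ROBO1 encodes a receptor for Slit guidance cues.

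Each value was the number of reads observed in a bin of 1 cell over the number expected there (OE). An OE of at least 1 counted as a contact of that bin with the lamina. The contact share of a cell is the percentage of a region's bins that touch the lamina by this limit. For a bin, the contact frequency is the percentage of cells that have a contact there. Positions are those of the genome build hg19, counted from 1. In 29 cells, called the deeper cells here, 40279 to 258225 reads were recovered, of which 2055 to 16514 fell on these 1592 bins. Cells 13, 15 and 17 had 985 to 1755 reads, 53 to 79 of them on these bins, and 1 read alone gave a median OE of 13.7 to 24.9. These cells had the lowest shares of the region, so ranges are given for the deeper cells where 1 cell matters. A contact in 0 of 32 cells allows a frequency of up to 9.38%, which covers counting error only. The cells are separate samples in the labels, and nothing says that they came from separate cultures, so p-values measure the spread between these cells.

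Chromosome 3 up to 162000000 was in contact over a mean of 28.0% of its bins, and this share was not separated from that of the other bins by the test. The contact share was lowest at 3.27% in cell 15, had a median of 31.1% and was highest at 42.1% in cell 20. The other 24992 bins of the same cells had shares of 3.51%, 26.3% and 36.7% at the lowest, the median and the highest. The ranges overlapped, and the region was higher in 22 of 32 cells. Both lowest values came from shallow cells. In the deeper cells alone, the region ranged from 18.3 to 42.1% and the other bins from 22.1 to 36.7%. The means were 28.0% ± 10.2 for the region and 26.2% ± 8.03 for the other bins (SD, n = 32). The difference within cells was 1.82 ± 5.27 percentage points (adjusted p = 0.0598, two-sided sign-flip permutation test over cells, adjusted over 5 comparisons). It passed the threshold of 0.05 under 6 of the 9 alternatives tried, with adjusted p from 0.00058 to 0.535. In order of contact share, 8 of 21 other chromosomes had a higher mean. Its nearest neighbours in that order were chromosome 11 with 29.2% ± 10.8 above it and chromosome 14 with 24.2% ± 10.9 below it, both within the spread between cells. All chromosomes come from the same cells, and differences within cells from either of these chromosomes were not tested.

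The region mixed contacted and uncontacted bins in proportions close to those of the genome. If every bin followed the overall contact share of each cell, 8.42 cells per bin would be in contact. The exact two-sided Poisson-binomial test with Benjamini-Hochberg adjustment over all 26584 bins called 540 of the 1592 bins as contacted above this expectation, with 15 or more cells each. This is 33.9%, against 30.3% of all bins in the table. It called 819 bins, or 51.4%, in contact less often, each in at most 3 cells, against 54.5% of all bins. Bins in contact in no cell numbered 614, or 38.6%, against 42.0%. Bins with a frequency of at least 50% numbered 516, or 32.4%, against 29.0%. Bins with an intermediate frequency of 20% to under 80% were 607, or 38.1%, against 31.9%, and bins with a frequency of at least 80% were 86, or 5.40%, against 8.43%. In percentage points, the intermediate bins stood furthest from the table, above it. Relative to the table's own share, the bins at 80% or more did, below it. In the deeper cells alone, 200 bins of the region, or 12.6%, reached 80%, against 14.2% of all bins. None of these differences was tested.

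**Figure D1:**
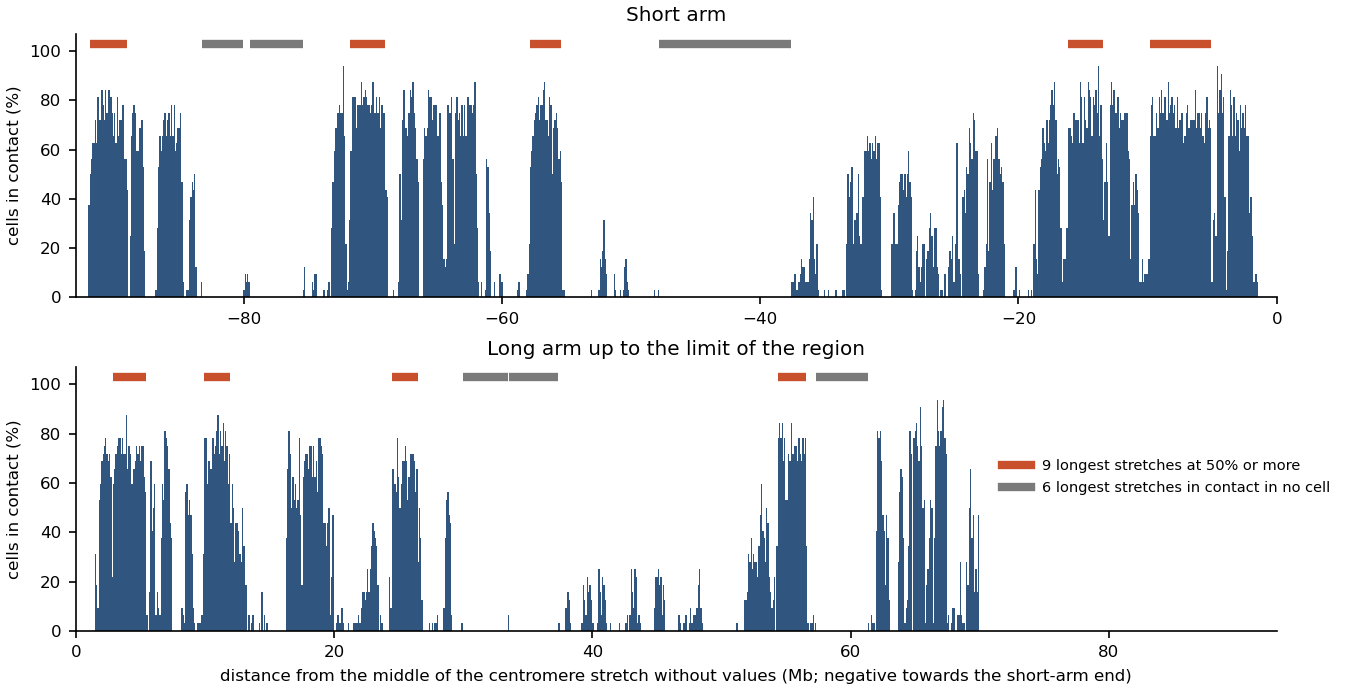
The percentage of the 32 cells in contact is plotted for each bin against its distance in Mb from the middle of the stretch without values between the arms, with the named contacted and never-contacted stretches marked by bars. The profile climbs above 50% in 59 separate stretches and lies at 0 over 92 others, the longest of which spans 10.2 Mb of the short arm.

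The long arm was less often in contact than the short arm. Shares of the long arm were 2.62%, 23.8% and 40.2% at the lowest, the median and the highest of the 32 cells. Those of the short arm were 3.2%, 32.5% and 48.2%. The long arm was lower in 26 of 32 cells and higher in 6, so the order of the arms was not the same in every cell. The means were 23.7% ± 10.5 on the long arm and 31.3% ± 11.4 on the short arm (SD, n = 32), a difference of -7.62 ± 8.58 percentage points (adjusted p = 3.75e-05, two-sided sign-flip permutation test). Among deeper cells the difference ran between -29.5 points in cell 7 and 11.9 points in cell 23. Cell 7 had 15.0% of the long arm and 44.5% of the short arm in contact, and cell 23 had 39.7% and 27.7%. Cell 6 had the lowest long-arm share of the deeper cells, 5.83%, against 27.8% of its short arm. Of the 540 bins called more often in contact, 186 lay on the long arm, or 27.1% of its bins, and 354 on the short arm, or 39.1%. Over all bins of the table this share was 30.3%. Bins at 80% or more numbered 22 on the long arm, or 3.21% of its bins, and 64 on the short arm, or 7.06%. Both shares of bins at 80% or more lay below the 8.43% of all bins in the table.

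**Figure D2:**
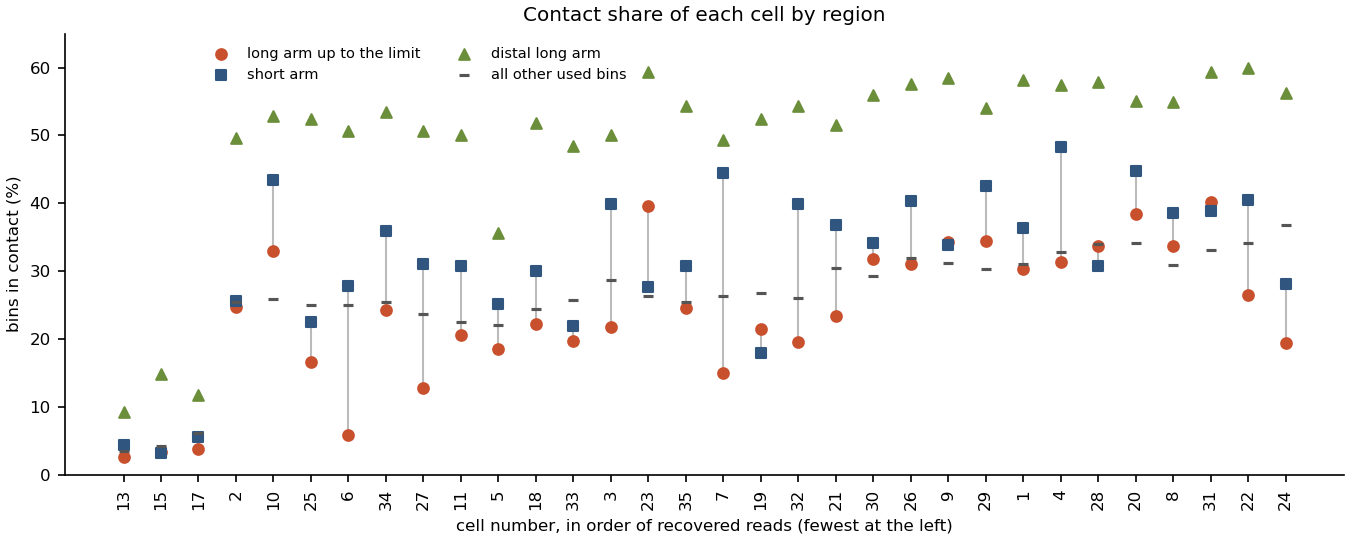
The percentage of bins in contact is plotted for each of the 32 cells in order of recovered reads, with 1 point per cell for the region's arms, the distal long arm and the other bins. The distal long arm lies above both arms of the region in every cell, and the 3 cells with the fewest reads lie far below the others.

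From its end to the centromere, the short arm alternated between contacted and uncontacted ground. It began with a contacted stretch at chr3:100001-3000000, 2.9 Mb long, in which every bin reached 50%. The mean share of that stretch was 71.4% ± 28.7 (SD, n = 32), and the deeper cells ranged between 13.8% in cell 2 and 100%. The bins that followed, at chr3:3000001-8800000, were mixed: 31 of 58 were called more often in contact, 19 less often and 14 had no contact in any cell. Over all bins of the table these shares were 30.3, 54.5 and 42.0%. The 58 bins included stretches at 50% or more of 1.8 Mb at chr3:5400001-7200000 and 1 Mb at chr3:3300001-4300000. Next came largely uncontacted ground, with runs of bins in contact in no cell at chr3:8800001-12000000 and chr3:12500001-16600000, which span 3.2 and 4.1 Mb. In the bins chr3:10000001-15000000, 45 of 50 were never in contact and all 50 were called less often in contact by the Poisson-binomial test. Over all bins of the table these shares were 42.0 and 54.5%.

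Contacts resumed at chr3:18900001-19900000, where each of the 10 bins had a frequency of 46.9 to 93.8%, enough to be called more often in contact. The longest unbroken stretch at 50% or more on the following ground, chr3:20300001-23000000, had a share of 77.8% ± 31.9 (SD, n = 32), the highest mean of the 9 longest such stretches. The deeper cells had 7.41%, 96.3% and 100% of it in contact at the lowest, the median and the highest, and the lowest was cell 23. In the window chr3:25000001-30000000, 42 of 50 bins were called more often in contact and 10 reached 80%. Over all bins of the table these shares were 30.3 and 8.43%. A shorter stretch stood more alone. The 2.4 Mb at chr3:34200001-36600000 were in contact at 71.0% ± 32.2, while the bins just before it averaged 5.73% and those just after it 10.6%.

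The longest ground without any contact lay in the middle of the short arm. Over 10.2 Mb at chr3:44200001-54400000, none of the 102 bins was in contact in any of the 32 cells. All cells together gave 307 reads there, and the mean OE was 0.0165 ± 0.0138 (SD, n = 32). The Poisson-binomial test called all 102 bins less often in contact, which follows from their selection as bins in contact in no cell. For comparison, the 2.9 Mb of the contacted stretch at the short-arm end held 13267 reads and had a mean OE of 2.47 ± 1.51. Reads were rare in this stretch but not absent.

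Between chr3:55000001-75000000 contacted and empty bins were mixed, and few bins reached high frequencies. Of 200 bins, 58 were called more often in contact and 79 less often, 48 had no contact in any cell, and 2 reached 80%. Over all bins of the table these shares were 30.3, 54.5, 42.0 and 8.43%. The bins called more often in contact were thus close to the table's share. A frequency of 20% to under 80% was found in 99 of the 200, against 31.9% of all bins of the table. Neither direction was called for 63 bins, or 31.5%, against 15.2% of all used bins of the table. The share in the deeper cells was 6.00% in cell 6, 29.0% at the median and 58.0% in cell 4. These bounds were chosen after the values were seen, so the zone is a description and was not tested.

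The 15 Mb next to it, chr3:75000001-90000000, were mostly contacted. None of its 150 bins was free of contact in all cells, 121 were called more often in contact, 9 less often and 20 in neither direction, and 28 reached 80%. Over all bins of the table, 42.0% were free of contact and 8.43% reached 80%. There, 30.3% were called more often in contact, 54.5% less often and 15.2% in neither direction. The deeper cells had 25.3%, 72.7% and 90% of it in contact at the lowest, the median and the highest. Within it, the longest unbroken stretch of the region at 50% or more was chr3:82200001-87000000, with 4.8 Mb. Each of its 48 bins had a frequency of 62.5 to 87.5%, and its mean OE was 2.55 ± 1.18 (SD, n = 32). All 48 were called more often in contact, which follows from their selection, as 15 or more cells sufficed for the call. The stretch at chr3:75900001-78600000 had a share of 74.2% ± 28.4 and included one of the 5 bins of the region in contact in 30 of 32 cells, chr3:78200001-78300000.

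On the long arm, contacts were frequent next to the centromere, and less frequent in the windows from 105000001 on. They did not fall steadily with distance. The windows chr3:145000001-150000000 and chr3:155000001-160000000 again had mean shares of 41.8 and 42.4%. The stretch chr3:94900001-97500000 had a share of 70.6% ± 34.7 and chr3:102000001-104000000 a share of 73.9% ± 32.1 (SD, n = 32 each). Both were nearly empty in cell 6, with 3.85% and 0% in contact, while the medians of the deeper cells were 92.3% and 90%. In the windows of 5 Mb between 105000001 and 120000000, the mean shares were 22.4, 27.1 and 33.1%. The last of these windows held the stretch chr3:116500001-118500000, with a share of 65.0% ± 35.9 and bins in contact in 50 to 78.1% of the cells.

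Between chr3:120000001-145000000 the long arm was hardly in contact. Of 250 bins, 165 lacked contacts in all cells, 42 had them in 1 to 3 cells, and 207 were called less often in contact. Over all bins of the table, 42.0% lacked contacts in all cells and 54.5% were called less often in contact. The share was 5.06% ± 4.49 (SD, n = 32), and the highest deeper cell was cell 23 with 17.6%. The runs in contact in no cell at chr3:122000001-125500000 and chr3:125600001-129400000, with 3.5 and 3.8 Mb, had a mean OE of 0.0172 ± 0.020 and 0.0103 ± 0.0129. After this came the stretch chr3:146400001-148600000 with a share of 73.3% ± 30.0, then another 4 Mb in contact in no cell at chr3:149400001-153400000.

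A short stretch near the limit held the most regularly contacted bins. Of the 1592 bins, 3 were in contact in every deeper cell, chr3:158700001-158800000, chr3:159100001-159200000 and chr3:159200001-159300000. Their frequencies over all 32 cells were 93.8, 90.6 and 93.8%, and the first had a mean OE of 5.16 ± 3.67, the highest of the region's bins in contact in 30 cells. They are 0.188% of the region's bins, against 0.520% of the other used bins. With the deeper cells alone, the 8 bins at chr3:158600001-159400000 formed the second longest stretch at 80% or more, 0.8 Mb long. At least 50% of it was in contact in 29 of 29 deeper cells.

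High frequencies came in short pieces. Stretches of adjacent bins at 80% or more numbered 64 and none exceeded 0.3 Mb, whereas those at 50% or more numbered 59 with a median of 0.4 Mb and a sum of 51.6 Mb. There were 7 of this greatest length at 80% or more, and 6 of them lie on the short arm, at chr3:1500001-1800000, chr3:20400001-20700000, chr3:21300001-21600000, chr3:24900001-25200000, chr3:26300001-26600000 and chr3:77400001-77700000. Their shares were between 81.2 and 84.4%. The seventh, chr3:159000001-159300000 on the long arm, had a share of 88.5% ± 27.6 (SD, n = 32). Without the 3 shallow cells the longest stretch at 80% or more spanned 1.8 Mb, at chr3:20800001-22600000, and 200 bins in place of 86 reached 80%. Most contacted stretches ended within a few bins. At 41 borders of stretches of 1 Mb or more, the distance to the nearest bin under 20% had a median of 0.2 Mb, and 31 of the 41 were within 0.3 Mb. The longest such distance was 3.5 Mb.

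**Figure D3:**
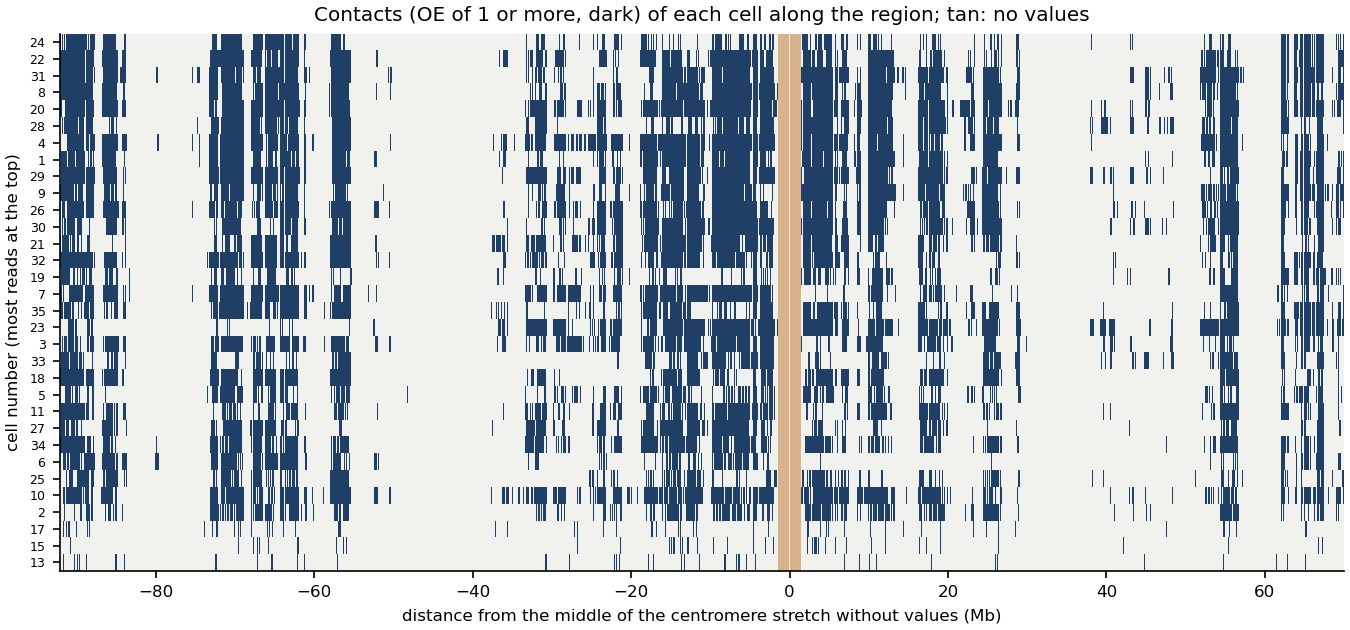
Each row is a cell, with the most reads at the top, and each column is a bin by its distance in Mb from the middle of the stretch without values; dark cells are contacts and tan marks bins without values. The contacted stretches recur as dark columns in most rows, with gaps in single cells, and the 3 shallow cells at the bottom hold few contacts.

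The end of the short arm was in contact more often than the rest of that arm. The 50 bins of the first 5 Mb had shares of 2.00%, 64.0% and 84.0% at the lowest, the median and the highest of 32 cells. The other 856 bins of the short arm had 3.27%, 31.2% and 47.5%. The end was higher in 30 of 32 cells. The means were 57.4% ± 22.6 for the end and 29.8% ± 11.1 for the rest of the arm (SD, n = 32), a difference of 27.6 ± 16.6 percentage points (adjusted p = 1.67e-05, two-sided sign-flip permutation test). Before adjustment, p was 1e-05, the smallest that this permutation test could give. The difference was 40.2 points with an end of 2 Mb and 14.5 points with an end of 10 Mb. The end was not the most contacted part of its arm. Mean shares were higher in the windows chr3:25000001-30000000 (63.3%), chr3:75000001-80000000 (64.0%), chr3:80000001-85000000 (58.4%) and chr3:85000001-90000000 (65.8%). The other windows of 5 Mb on this arm were lower, down to 0% at chr3:45000001-50000000. Of the 50 bins of the end, 39, or 78%, were called more often in contact, against 30.3% of all bins in the table. Another 7, or 14%, were called less often, against 54.5%. In RefSeq's GRCh38 annotation, used for gene order only, the genes CHL1, CNTN6, CNTN4, IL5RA, TRNT1 and CRBN follow each other at this end, after 2 genes without a name of their own. CHL1, CNTN6 and CNTN4 encode neural cell adhesion molecules, IL5RA a subunit of the interleukin-5 receptor, TRNT1 the enzyme that adds the CCA ends of tRNAs, and CRBN cereblon, a substrate receptor of a ubiquitin ligase. No gene was placed in a bin.

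Among chromosome ends, that of the short arm of chromosome 3 had the highest mean share. The 36 other ends with enough bins had a median of 0.695% and a maximum of 28.8% ± 19.2, at the start of chromosome 18. The bins of all other ends pooled had shares of 0.563%, 6.16% and 10.1% at the lowest, the median and the highest cell. The short-arm end of chromosome 3 was higher in 32 of 32 cells, by 51.3 ± 21.4 percentage points (adjusted p = 1e-05, two-sided sign-flip permutation test, adjusted over 2 comparisons added after the values were seen). A separate test against the start of chromosome 18 alone was not run.

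Both sides of the centromere were in contact more often than the rest of the region. The bins within 5 Mb of the stretch without values at 90600001 to 93500000 had shares of 4.00%, 63.5% and 88% at the lowest, the median and the highest of 32 cells. The other 1492 bins had 2.75%, 28.6% and 39.3%. The flanks were higher in 32 of 32 cells. The means were 58.2% ± 22.9 for the 100 flank bins and 26.0% ± 9.47 for the others (SD, n = 32), a difference of 32.1 ± 14.9 percentage points (adjusted p = 1.67e-05, two-sided sign-flip permutation test). The long-arm flank had a share of 57.4% ± 29.4 and the short-arm flank 58.9% ± 23.8. Their spread over deeper cells was wide on the long arm, with 2.00% in cell 6 and 92.0% in cell 31. Some windows of 5 Mb outside the flanks exceeded the 58.2% of the flank bins. These were chr3:25000001-30000000 (63.3%), chr3:75000001-80000000 (64.0%) and chr3:80000001-85000000 (58.4%). The other windows outside the flanks were lower, down to 0% at chr3:45000001-50000000. The test therefore does not set the flanks apart from every contacted part of the region. Of 50 bins on each side, 39, or 78%, were called more often in contact on the long arm and 36, or 72%, on the short arm. Over all bins of the table this share was 30.3%.

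The same flanks were compared with those of the other chromosomes. None of the 35 other flanks had a higher mean, their median was 8.94%, and the highest was 52.8% ± 21.8 on the left side of chromosome 5. That value lies within the spread of the flanks of chromosome 3, and a test within cells against that flank alone was not run. Against all other flank bins together, with 16.1% ± 5.52, the flanks of chromosome 3 were higher in 32 of 32 cells, by 42.1 ± 19.1 points (adjusted p = 1e-05, two-sided sign-flip permutation test, adjusted over the same 2 added comparisons). In RefSeq's GRCh38 annotation the widest gap between the genes of chromosome 3 follows CSNK2A2IP and EPHA3 on the short arm and precedes PROS1 on the long arm. EPHA3 encodes an ephrin receptor and PROS1 the anticoagulant protein S.

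**Figure D4:**
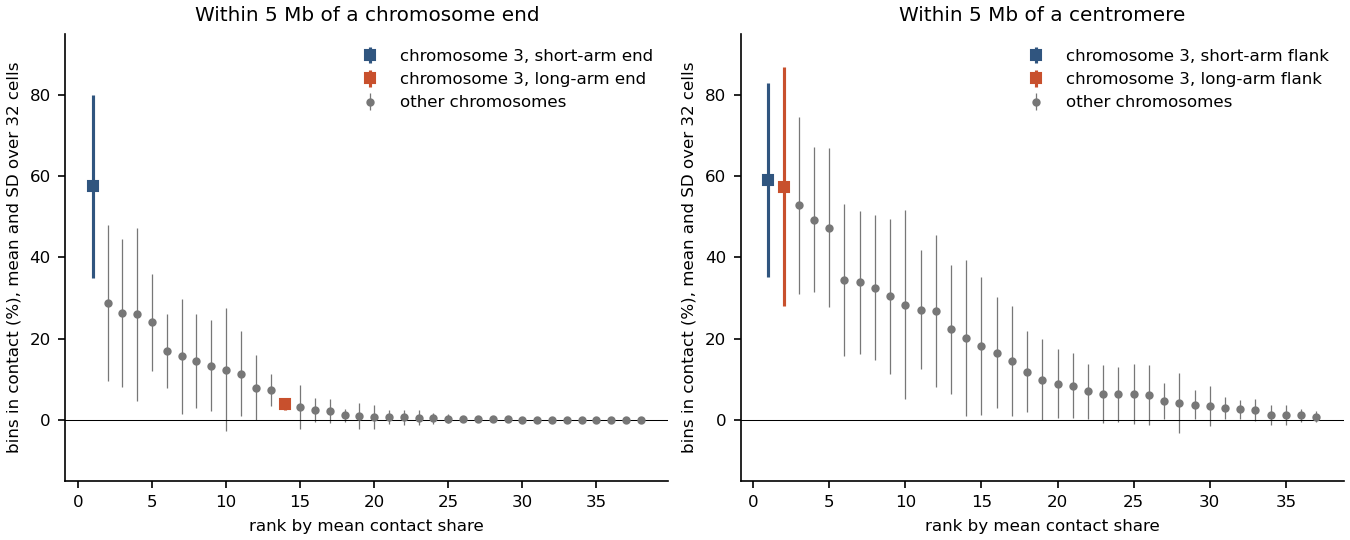
Mean contact share with the SD over 32 cells is plotted by rank for chromosome ends and for the flanks of centromeres, with chromosome 3 in colour and the other chromosomes in grey. The short-arm end of chromosome 3 has 57.4%, against at most 28.8% for the other ends, and its flanks have 58.9% and 57.4%, against at most 52.8%.

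The contacted stretches were not in contact in every cell. The 9 longest stretches at 50% or more include 2 of equal length, 2 Mb, in the last place. At least 50% of all 9 was in contact in 12 of 29 deeper cells. Of 261 combinations of a cell and a stretch, 38 were under 50%, 14 under 20% and 1 at 0. No stretch reached 50% in every deeper cell, and every deeper cell had at least 5 of the 9 at 50% or more. The stretches were picked from these same cells for frequencies of 50% or more, which favours high shares here. The 38 low combinations came from 17 of the 29 cells. Cell 6 had 3.85, 0, 5.00 and 22.7% of the 4 long-arm stretches in contact, with 80572 reads. Cell 23 had 4.17 and 7.41% of the short-arm stretches at chr3:34200001-36600000 and chr3:20300001-23000000, with 116045 reads. On the region's bins, cell 6 had 3521 reads and cell 23 had 8512, against a median of 9190 in the deeper cells. The part of depth in these low shares was not tested.

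**Figure D5:**
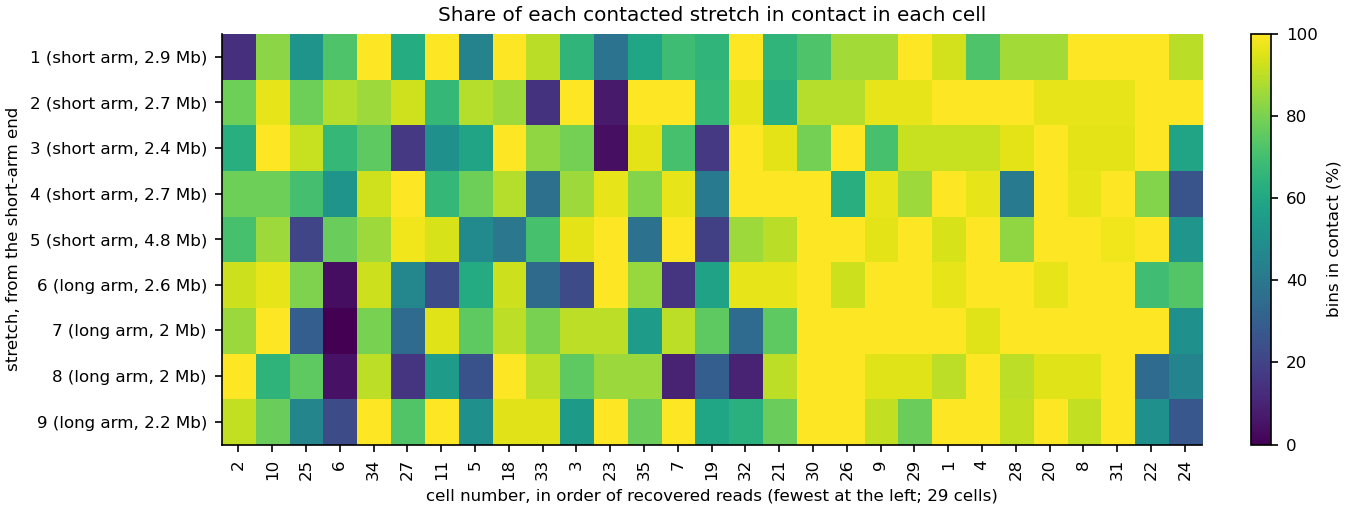
The percentage of bins in contact is shown by colour for the 9 longest stretches at 50% or more, in order from the short-arm end, in each of the 29 deeper cells in order of recovered reads. Most squares lie at 50% or more, which the choice of the stretches from these cells favours, and 38 of 261 lie under it.

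Across the 29 deeper cells, which share their depth across all stretches, some pairs of stretches varied together and others hardly did. Correlations were taken after subtracting each cell's share on the other chromosomes. For the 16 pairs of stretches on the same arm, Pearson's r had a median of 0.348 and a range of -0.0270 to 0.677. Pairs on the long arm had r of 0.341 to 0.677, and pairs on the short arm -0.0270 to 0.485. Cell 6 was low in every long-arm stretch at once, with 0 to 22.7% in contact, and its part in these r was not tested. For the 20 pairs on different arms the median was 0.141, between -0.232 and 0.467. By distance, the 7 pairs up to 20 Mb apart had a median of 0.400, between 0.00602 and 0.570. The 29 pairs further apart had a median of 0.169. These differences were not tested. The shares of the long arm and the short arm had r = 0.421 over 29 cells (Spearman's rho 0.404), and 0.405 without the 2 cells farthest from the median. After subtracting the share of the other chromosomes in the same cell, r was 0.222 and rho 0.0966, and r was 0.0330 without 2 cells. The region's share had r = 0.528 with log10 of recovered reads, so depth moved with the share, and its part in these relations was not tested. Relative to the other chromosomes of the same cell, the region ranged between -12.1 percentage points in cell 24 and 13.3 points in cell 10. Cell 24 had the most reads of all cells, with 24.4% of the region and 36.7% of the other bins in contact.

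Within single cells, contacts formed runs of adjacent bins. In the deeper cells a run had a mean length of 0.493 ± 0.142 Mb in the region and 0.501 ± 0.110 Mb on the other chromosomes (SD, n = 29). Runs averaged 0.411 ± 0.126 Mb on the long arm and 0.558 ± 0.194 Mb on the short arm, and were longer on the short arm in 25 of 29 cells. The difference was not tested. The longest run of a cell was between 1.3 and 5.1 Mb, lay on the short arm in 23 of 29 cells and overlapped chr3:82200001-87000000 in 12. In cells 4 and 7 the longest run, of 5.1 Mb, was the same chr3:82200001-87300000.

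Beyond the limit, the distal long arm differed sharply from the region. The region had 3.27%, 31.1% and 42.1% in contact at the lowest, the median and the highest of 32 cells, and the distal long arm 9.19%, 53.2% and 59.9%. The region was lower in 32 of 32 cells, by -21.6 ± 7.07 percentage points (adjusted p = 1.67e-05, two-sided sign-flip permutation test). As the limit was set with earlier results known, this is no independent evidence that the chromosome divides there. Bins in contact in every deeper cell were 3 of 1592 in the region, against 72 of 359 (20.1%) in the distal arm. The mean OE was 0.945 ± 0.213 in the region and 2.79 ± 0.766 in the distal arm. The OE of bins in contact in no cell moved in the same direction, at 0.0380 ± 0.0254 in the region, 0.0651 ± 0.0492 in the distal arm and 0.0324 ± 0.0218 in the other bins. The part of the higher read level of the distal arm in its contact calls was not tested. The bins next to the limit had the same frequency, 46.9% in the last bin inside and 46.9% in the first outside. Their mean OE was 1.23 ± 1.20 and 1.25 ± 1.17. Over 2 Mb on each side, the mean frequency was 20.6% inside and 70.8% outside.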

How the data were processed

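The deposited table holds, per the file headers, a ratio (OE) for each bin of 100 kb in each cell: observed over expected reads. The tools cutadapt and Bowtie2 2.1.0 and the build hg19 are named in the submitters' processing notes, which give no order or role. How the expectation was made is not given in the sources used here, and no unfused-Dam cells were used here. Of 35 listed samples, 32 matched a column, and samples 12, 14 and 16 were not analysed here. Of 30376 bins, 3792 had no value in any cell.

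Whole reads were recovered from the steps of the values, and 100% came out whole within 0.01 reads, which follows from the method. Amplified reads can be copies of one molecule, so intervals and floors cover counting error only.

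For each bin, the number of cells in contact was set against the number implied by each cell's contact share (exact Poisson-binomial test, two-sided), adjusted by Benjamini-Hochberg over 26584 bins. Regions were compared within cells by two-sided sign-flip permutation tests with 100000 resamples, adjusted over 5 comparisons. The 2 comparisons with other chromosome ends and centromere flanks were added after the values were seen and adjusted apart. The longest stretch without values of a chromosome stood for its centromere, except on chromosome 15, where the stretch at its start was used. Scripts ran in Python 3.11.15 with NumPy 2.4.6, SciPy 1.17.1 and pandas 2.3.3, and were tested on simulated data.

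The text names the 8 longest stretches at 50% or more, the 4 longest at 80% or more and the 6 longest in contact in no cell, with every stretch tied for the last place, which makes 9, 7 and 6. Other windows were picked with their values in view. The members, the limits and the lists were chosen with earlier results of these data known. The planned gene lists were not run, because the gene table at hand is of GRCh38 and the bins are of hg19, and no sequence is shown for the same reason. Alternatives were other contact limits, fewer cells, fewer bins, other widths of end and flank, other comparison bins and reads thinned to 40279 per cell.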

Additional observations from a re-analysis of the deposited data

How the results depend on the processing

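Over 91 values recomputed under the alternatives, 77 led to the same call or stayed within 1.5 times the main count or within the spread between cells, and none changed direction. The difference between the region and the other bins was the 1 comparison whose call changed. It passed at 2.73 points with a contact limit of 0.5 (adjusted p = 0.00398), 3.37 with any read counted (0.00058), 2.25 without the 8 sparsest cells (0.0399), 2.51 against autosomes (0.0118), 2.16 without the distal long arm (0.0282) and 2.22 with reads thinned (0.0293), by the sign-flip permutation test. Its lowest value was 0.593 points, and the cause of these changes was not tested. Bins at 80% or more numbered 284 with a limit of 0.5, 6 with a limit of 2, 462 with any read, 200 in the deeper cells and 218 without the 8 sparsest cells. Only 49 bins stayed without a contact once any read counted as one. The mean contact share was then 47.7%, and it was 17.7% at a limit of 2.

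The long arm stayed below the short arm by -8.29 to -5.51 points (adjusted p from 3.75e-05 to 0.000575). The region stayed below the distal long arm by -25.6 to -17.0 points. The short-arm end stayed above the rest of its arm by 14.5 to 40.2 points and the flanks above the rest of the region by 24.3 to 36.4. Against other chromosomes, the end stayed higher by 31.5 to 67.1 points and the flanks by 31.0 to 47.4. Leaving out cells was done by depth, since 1 group of 32 cells has no small replicate groups. The comparisons of regions were already paired within cells, and a replicate block could not be fitted because the cells form 1 group. Depth limits the shallow cells most, in which 1 read makes a contact, and the gene lists were not run.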
